A study of Homo sapiens with 18 samples.

Results

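Abemaciclib and palbociclib were compared directly in ZR-75-1, an established oestrogen receptor-positive human breast cancer cell line. The comparison takes the 3 abemaciclib libraries and the 3 palbociclib libraries of this line, 6 of the 18 libraries of the series, and covers all genes. The 3 DMSO libraries of the line served only as the reference level. The wild-type parental cells grew in RPMI with fetal bovine serum and received abemaciclib at 500 nM, palbociclib at 500 nM or the same volume of the solvent DMSO for 5 days. The study describes the replicates as independent biological cultures of a single cell line, so the p-values describe the spread between cultures of this line. The 2 compounds form 1 pair, compared at 1 nominal concentration and 1 time. The files analysed here hold no measure of drug exposure inside the cells or of kinase activity, so a difference between the compounds, stepwise patterns from DMSO through palbociclib to abemaciclib included, and a difference in effective dose cannot be told apart. RNA was read at the 3′ end of transcripts, and values below are normalised counts, scaled to a common library size (CPM).

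CDK4 and CDK6 are cyclin D-dependent kinases that phosphorylate the retinoblastoma protein (Rb). Unphosphorylated Rb holds E2F transcription factors in check, and E2F activity switches on genes for nucleotide supply, DNA replication and entry into S phase. A later wave of genes for mitosis is driven by complexes of MuvB with B-Myb and FOXM1, while the DREAM complex represses it in cells that have left the cycle. Abemaciclib and palbociclib both occupy the ATP pocket of these kinases and both carry a piperazine-bearing aminopyridine arm. They differ in the core: palbociclib has a pyridopyrimidinone with a cyclopentyl group, and abemaciclib has a pyrimidine joined to a fluorinated benzimidazole.

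The abemaciclib libraries held 2626383 to 3069483 counts and the palbociclib libraries 2998974 to 3737355 (exact permutation test, two-sided, p = 0.2, where 3 against 3 allows no p below 0.1), and 3 counts stood for 0.803 to 1.14 CPM. Replicates of a group correlated at r = 0.976 to 0.979 on the log scale over genes, and each pair of replicates differed by more than sampling noise. In a principal component analysis the 3 groups separated without overlap. The first component, with 57.2% of the variance, placed palbociclib at 4.81 to 5.34 and abemaciclib at 28.7 to 28.8, with DMSO at -34.2 to -33.4. The second component, with 14.7%, placed palbociclib at -18.6 to -17.7, DMSO at 4.96 to 7.99 and abemaciclib at 11.0 to 11.8. Thus on the first axis palbociclib lay between DMSO and abemaciclib, and on the second axis palbociclib stood apart from both. The cells carried luminal epithelial markers, whose 18 genes summed to 12901 to 13170 CPM with abemaciclib, 10939 to 11143 with palbociclib and 10661 to 11190 with DMSO. Of 9 basal markers, 4 (KRT5, KRT14, TP63 and CNN1) had no count in any of the 9 libraries. The same held for 4 of 10 fibroblast markers (COL1A2, COL3A1, DCN and PDGFRB) and 4 of 8 immune and endothelial markers (CD3E, CD79A, PECAM1 and CDH5). Counts stayed at 3 or below in every library for 6 basal, 6 fibroblast and 7 immune and endothelial markers. The basal list summed to 11.3 to 16.6 CPM with abemaciclib and 12.3 to 14.9 with palbociclib. These sums were 28.2 to 37.8 and 30.4 to 37.0 for the fibroblast list, and 2.37 to 6.17 and 5.76 to 11.0 for the immune and endothelial list. Counts from mitochondrial genes made up 19.5% ± 1.01 of the abemaciclib libraries and 19.0% ± 0.701 of the palbociclib libraries (SD, n = 3 each, exact permutation p = 0.6).

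With abemaciclib, genes of mitosis were far lower than with palbociclib and part of the genes of DNA replication were lower by smaller amounts, while immediate early genes, luminal transcription factors and some lipid and lysosome genes were higher. Of 11017 genes tested, 1451 were called at an adjusted p under 0.05 by the quasi-likelihood test of edgeR, which is 13.2% of all. Of these, 576 (5.23% of tested genes) were higher with abemaciclib and 875 (7.94%) were lower. The directions differed in size, since 292 of the lower genes but 67 of the higher genes differed at least 2-fold, and 91 against 8 differed at least 4-fold. The median log2 difference was -0.72 over the lower genes and 0.47 over the higher genes, against -0.01 over all genes tested. The libraries of the groups did not overlap for 1377 of the 1451 called genes, and for 27.6% of all tested genes. DESeq2, the tool the study used, called 909 genes. When a difference beyond 1.5-fold was itself tested, 29 higher and 180 lower genes remained.

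For a large share of the transcriptome the data bound the difference between the compounds closely. The 95% interval of the difference lay within 1.5-fold in both directions for 5029 genes (45.6%) and within 2-fold for 8202 genes (74.4%). A further 2171 genes were not called while their interval reached beyond 2-fold, so for these the depth left a 2-fold difference undecided.

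**Figure D1:**
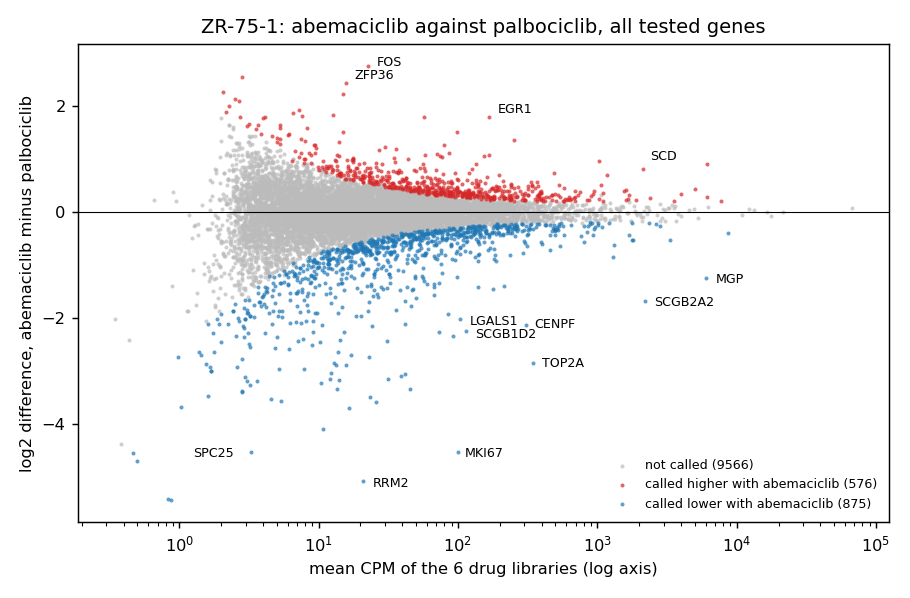
Each point is 1 of the 11017 tested genes, placed by its mean CPM over the 6 drug libraries (x, log axis) and its fitted log2 difference, abemaciclib minus palbociclib (y). Red marks the 576 genes called higher with abemaciclib and blue the 875 called lower, and the lower genes reach further from 0, with RRM2 at -5.08 and MKI67 at -4.52 against FOS at 2.77.

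Set against the DMSO mean as a reference level, most of the lower genes had both drug means below DMSO, with abemaciclib further down. Among the 875 lower genes, 535 (61.1%) had both drug means below DMSO, 226 (25.8%) had abemaciclib below DMSO and palbociclib at or above it, and 114 (13.0%) had both means at or above DMSO with palbociclib further up. Among the 576 higher genes, 307 (53.3%) had both means above DMSO with abemaciclib further up, 223 (38.7%) had abemaciclib above and palbociclib at or below DMSO, and 46 (7.99%) had both at or below it. Both drugs were measured against the same 3 DMSO libraries, and these positions are a description of means without a test. By the tests against DMSO, 376 of the lower genes (43.0%) passed for each drug with like sign, 295 (33.7%) with abemaciclib alone, 110 (12.6%) with palbociclib alone, 8 for each drug with unlike sign and 86 (9.83%) with neither. For the higher genes these were 183 (31.8%), 231 (40.1%), 70 (12.2%), 9 and 83 (14.4%). Against DMSO, 36.2% of tested genes were called with abemaciclib and 27.9% with palbociclib, in comparisons that share those DMSO libraries with each other and the drug libraries with the comparison between the compounds.

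**Figure D2:**
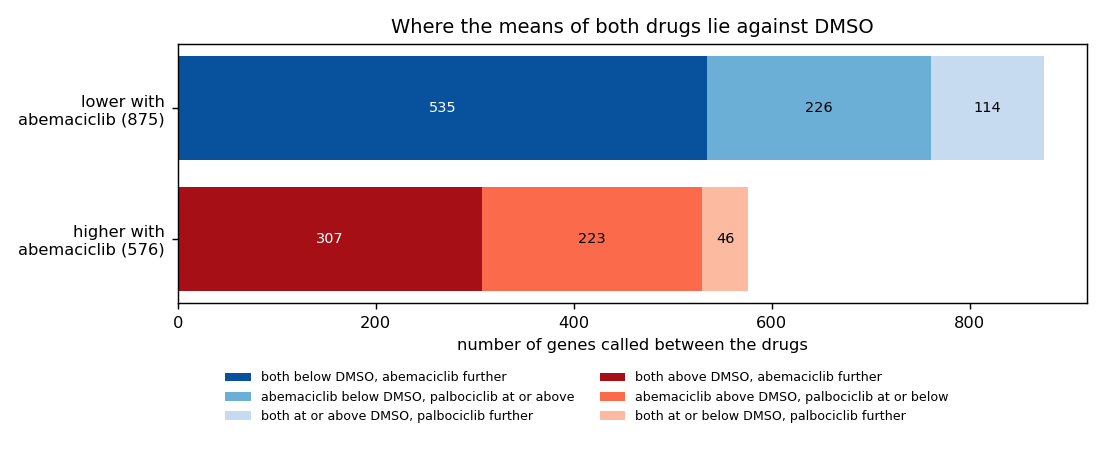
Bars count the 875 genes called lower and the 576 called higher with abemaciclib, split by where the palbociclib and abemaciclib means lie against the DMSO mean. The dark segments are genes with both drug means on the same side of the DMSO mean and abemaciclib further from it, 535 of the lower and 307 of the higher genes.

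Proliferation genes were mostly lower with abemaciclib. Combined, 9 lists of cell cycle genes had 214 tested members, of which 130 were lower with abemaciclib and 1 was higher, with a median log2 difference of -0.77. All other tested genes had 745 lower and 575 higher calls and a median of -0.01, and 14.9% of the lower genes were in the 9 lists. MKI67 (chr10:128096659-128126423, GRCh38), which encodes the proliferation antigen Ki-67 that coats mitotic chromosomes, stood at 180.3, 204 and 188 CPM in the palbociclib libraries and at 6.80, 5.42 and 13.1 CPM in the abemaciclib libraries. The DMSO libraries held 479.9, 501 and 483 CPM, so that all palbociclib libraries lay between the other groups and no groups overlapped. Its log2 difference was -4.52 ± 0.14 (SE, adjusted p = 4.82e-33), a 23.0-fold lower level with abemaciclib. In bulk RNA, fewer cells in cycle and less RNA per cell cannot be told apart. TOP2A, topoisomerase II alpha, which untangles sister chromatids, stood at 620.4, 612 and 584 CPM with palbociclib and 83.5, 80.2 and 88.3 with abemaciclib, against 1437, 1481 and 1509 with DMSO. The drop from DMSO was again larger with abemaciclib, and TOP2A had the smallest p of all genes (log2 difference -2.85 ± 0.08, adjusted p = 2.14e-35).

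Genes of the spindle and kinetochore were lower in most members. Of 62 tested members, 48 were lower with abemaciclib and none was higher (77.4% called, against 13.2% of all tested genes). The median log2 difference was -1.44, and 61 of the 62 fitted values were negative. CENPF, a large kinetochore protein of G2 and M phase, fell from 504, 508 and 479.9 CPM with palbociclib to 111, 121 and 110.3 with abemaciclib (log2 difference -2.12 ± 0.08, adjusted p = 3.56e-30). PTTG1, the securin that holds separase inactive until anaphase, measured 80.7, 92.9 and 75.4 CPM with palbociclib and 6.15, 8.12 and 10.4 with abemaciclib (-3.34 ± 0.16, adjusted p = 2.96e-24). PLK1, a kinase of mitotic entry and spindle assembly, measured 72.4, 73.4 and 77.7 and 9.38, 7.45 and 10.0 CPM in the same order (-3.06 ± 0.15, adjusted p = 1.75e-23). In none of these 3 genes did the groups overlap. ASPM, which focuses spindle poles, differed by -2.25 ± 0.11 and AURKA, a centrosome kinase, by -1.41 ± 0.14. SPC25, a subunit of the NDC80 complex, had 2 counts over all abemaciclib libraries against 62 over the palbociclib libraries, a ratio of 26.4 with a counting interval of 7.01 to 223 (exact, 95%, counting error only). KIF20A, a kinesin of cytokinesis, had 6 counts against 85, a ratio of 12.1 (5.32 to 33.8). At such counts the abemaciclib level is at the limit of detection, and the ratio is known only within these bounds.

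The cyclins and kinases that drive S phase and mitosis were lower as a group, with a median of -1.33. Of 15 tested members 13 were called lower and none higher (86.7% called, against 13.2% of all tested genes). CCNA2, cyclin A2, which acts in S and G2 phase, measured 17.0, 19.8 and 28.6 CPM with palbociclib and 1.62, 3.05 and 2.699 with abemaciclib (-3.14 ± 0.29, adjusted p = 5.39e-13). CDK1, the mitotic kinase, measured 50.2, 57.2 and 61.8 and 13.3, 17.9 and 15.8 CPM (-1.85 ± 0.15, adjusted p = 7.73e-15). CCNB1, cyclin B1, the partner of CDK1, differed less, with 40.3, 47.9 and 45.3 and 19.4, 20.6 and 19.3 CPM (-1.16 ± 0.15, adjusted p = 1.92e-08). All palbociclib values of these 3 genes lay above all abemaciclib values and below all DMSO values. CCNE2, a cyclin E of the G1 to S transition, had 4 counts over the abemaciclib libraries and 53 over the palbociclib libraries (ratio 11.3, counting interval 4.16 to 43.0). CCNB2 (-1.69 ± 0.18), PKMYT1, an inhibitory kinase of CDK1 (-1.24 ± 0.13), and CDKN3, a phosphatase of cyclin-dependent kinases (-2.84 ± 0.29), were also lower. CDK2 and CKS1B were not called.

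Some transcription factors of the cycle were lower with abemaciclib. MYBL2, which encodes B-Myb, measured 251, 264 and 270.3 CPM with DMSO, 214, 187 and 209.7 with palbociclib and 73.5, 85.3 and 70.6 with abemaciclib. Palbociclib lowered it from DMSO by a small amount that was called (-0.36 on the log2 scale, adjusted p = 0.000376). The compounds differed by -1.41 ± 0.09 (adjusted p = 7.97e-19). FOXM1, the activator of the mitotic wave, measured 73.5, 79.0 and 75.9 CPM with palbociclib and 27.2, 22 and 25.1 with abemaciclib (-1.62 ± 0.13, adjusted p = 2.18e-15). E2F1 stood at 40.9, 46.9 and 50.2 CPM with palbociclib and 26.2, 26.1 and 24.7 with abemaciclib (-0.84 ± 0.15, adjusted p = 1.94e-05). Its DMSO values of 51.7, 56.3 and 49.1 CPM overlapped the palbociclib values, and E2F1 was not called between palbociclib and DMSO (adjusted p = 0.304). E2F2, an activating E2F, differed by -2.58 ± 0.37. Of the 10 tested E2F and DP factors 5 were lower and none higher (50% called, against 13.2% of all tested genes, DESeq2 called 3). Of 6 tested members of the MuvB, B-Myb and FOXM1 group, MYBL2 and FOXM1 were lower (33.3% called). The MuvB subunits LIN9, LIN52, LIN54 and RBBP4 were not called.

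**Figure D3:**
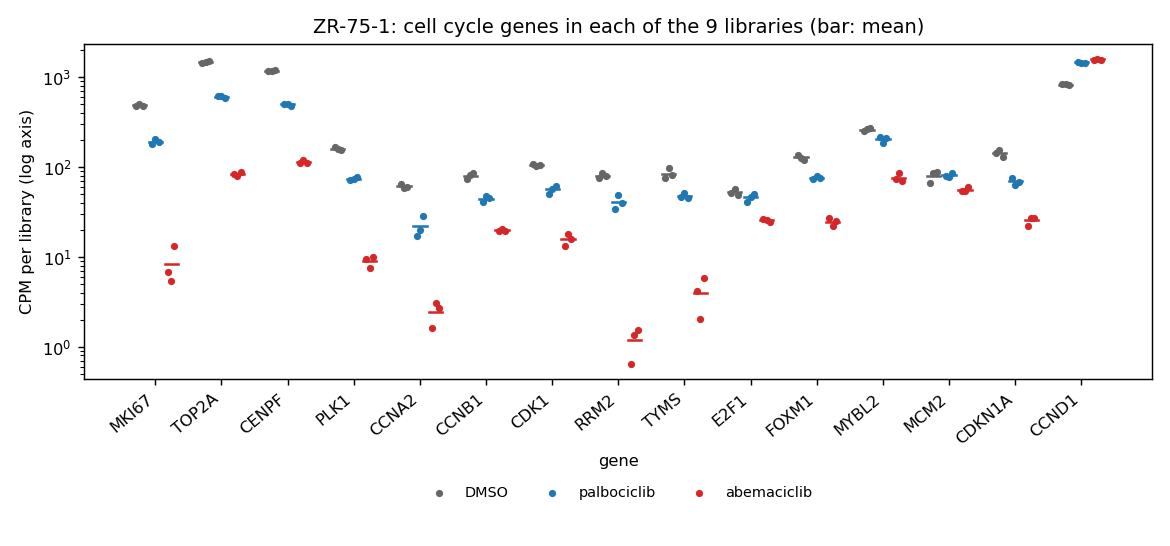
Points give the CPM (log axis) of each of the 9 libraries for 15 cell cycle genes, grey for DMSO, blue for palbociclib and red for abemaciclib, with a bar at the group mean. For MKI67, TOP2A, CENPF and PLK1 the 3 groups step down without overlap from DMSO through palbociclib to abemaciclib, for E2F1 and MCM2 palbociclib lies near DMSO, and for CCND1 both drugs lie together above DMSO.

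Several genes of nucleotide supply were lower with abemaciclib. RRM2 (chr2:10120698-10211725, GRCh38), the regulatory subunit of ribonucleotide reductase, stood at 75.1, 85.8 and 79.3 CPM with DMSO and 33.7, 48.9 and 39.6 with palbociclib, against 0.647, 1.35 and 1.54 with abemaciclib. That is a log2 difference of -5.08 ± 0.28 (adjusted p = 1.95e-21), from 2, 4 and 4 counts in the abemaciclib libraries, so the abemaciclib level is near the limit of detection. TYMS, thymidylate synthase, measured 46.6, 51.9 and 45 CPM with palbociclib and 4.21, 2.03 and 5.78 with abemaciclib (-3.59 ± 0.22, adjusted p = 9.49e-20). TK1, thymidine kinase, measured 45, 29.1 and 32.9 and 8.41, 9.14 and 12.3 CPM (-1.86 ± 0.20), while its palbociclib level was not called against DMSO (adjusted p = 0.111). RRM1, the catalytic partner of RRM2, fell less, with 309.8, 299 and 295 and 178, 179.7 and 159 CPM (-0.80 ± 0.08, adjusted p = 2.56e-12). In all, 7 of 16 tested genes of dNTP synthesis were lower and none was higher, with a median of -0.33. The share called was 43.75%, against 13.2% of all tested genes.

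In the machinery that licenses and copies DNA, several genes were lower with abemaciclib and were not called between palbociclib and DMSO. MCM2, a subunit of the replicative helicase, stood at 66.8, 84.9 and 88.1 CPM with DMSO, 79.3, 78.0 and 85.8 with palbociclib and 54.0, 53.5 and 59.4 with abemaciclib. The palbociclib and DMSO values overlapped, and the compounds differed by -0.55 ± 0.12 (adjusted p = 0.000453). MCM4 (-0.62 ± 0.10), MCM5 (-1.08 ± 0.17) and MCM6 (-1.46 ± 0.23), further subunits, were lower with abemaciclib, and none of these 3 was called between palbociclib and DMSO (adjusted p = 0.665, 0.66 and 0.337). MCM10, a factor that activates the helicase, differed by -2.26 ± 0.24. Of 26 licensing genes 14 were lower and none higher (53.8% called, median -0.56). Of 33 replication fork genes 14 were lower and none higher (42.4% called, median -0.51). Among all tested genes 13.2% were called. CLSPN, which relays stalled-fork signals, had 46.1, 59.2 and 51.7 CPM with palbociclib and 10.4, 9.14 and 9.25 with abemaciclib (-2.44 ± 0.18, adjusted p = 8.9e-17). DNMT1, the maintenance DNA methyltransferase, differed by -0.90 ± 0.10 and HELLS, a chromatin remodeller, by -1.21 ± 0.13.

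Chromatin and repair genes followed. In the list of condensin, topoisomerase II and chromatin genes, 14 of 15 members were lower (93.3% called, against 13.2% of all tested genes). HMGB2, a DNA-bending protein, stood at 51.0, 78.0 and 82.0 CPM with palbociclib and 7.44, 10.5 and 6.56 with abemaciclib (-3.09 ± 0.18, adjusted p = 2.32e-20). H2AZ1, the histone variant H2A.Z, was abundant and fell from 553, 590.4 and 573 to 338, 343 and 360.1 CPM (-0.72 ± 0.07, adjusted p = 2.07e-12). LMNB1, lamin B1 of the nuclear envelope, differed by -1.08 ± 0.15. Of 32 homologous recombination and Fanconi genes 14 were lower and 1 higher (46.9% called). The lower ones included BRCA1 (-0.88 ± 0.16, adjusted p = 2.61e-05). FANCF was the 1 member called higher (0.74 ± 0.21, adjusted p = 0.0111), and it was no longer called without abemaciclib replicate 1 (adjusted p = 0.0584), palbociclib replicate 1 (0.0558) or palbociclib replicate 2 (0.0579).

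CDK4, CDK6 and CCND1 were not called between the compounds, while CCND3, cyclin D3, and inhibitors of these kinases were lower with abemaciclib. CCND3 measured 36.2, 31.7 and 37.8 CPM with palbociclib and 21.0, 22.7 and 23.1 with abemaciclib (-0.67 ± 0.17, adjusted p = 0.00384). CDK4 stood at 223, 228 and 205 CPM with palbociclib and 223, 253 and 231 with abemaciclib, and the groups overlapped (log2 difference 0.11, 95% interval -0.05 to 0.26, adjusted p = 0.438). CDK6 was low, with at most 3.56 CPM under either drug, and its interval of -1.08 to 1.41 left the comparison undecided. CCND1, cyclin D1, stood at 839, 830.1 and 812 CPM with DMSO, 1495, 1428 and 1449.9 with palbociclib and 1566, 1585 and 1573 with abemaciclib. Both drugs lay above DMSO by a similar amount, and the difference between them of 0.11 (interval -0.01 to 0.24, adjusted p = 0.269) was not called. RB1 measured 34.3, 45.3 and 47.6 CPM with palbociclib and 32.4, 27.1 and 33.9 with abemaciclib (-0.44 ± 0.15, adjusted p = 0.0399). That call was lost when abemaciclib replicate 1, 2 or 3 or palbociclib replicate 2 or 3 was left out (adjusted p = 0.0729, 0.221, 0.0547, 0.155 and 0.216), with upper-quartile factors (0.0583), with no filter on low counts (0.0582) and with DESeq2 (0.162). The inhibitors CDKN2A (-1.53 ± 0.30), CDKN2C (-1.45 ± 0.31) and CDKN2D (-1.51 ± 0.33), which bind CDK4 and CDK6, were lower with abemaciclib, and so was CDKN1A, which encodes p21. CDKN1A stood at 144, 153 and 130.1 CPM with DMSO, 76.3, 63.8 and 67.6 with palbociclib and 22.3, 27.4 and 27.0 with abemaciclib (-1.44 ± 0.13, adjusted p = 4.2e-13), and no groups overlapped. Of 10 tested genes of the Rb, cyclin D and INK4 list, 5 were lower and none higher, with a median of -0.56. The share called was 50%, against 13.2% of all tested genes.

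Because the lower genes include many with known cell cycle promoters, short promoter words were counted in RefSeq windows of 300 bases (250 before and 50 after the annotated start, GRCh38.p14, first window listed per gene), which 8653 of the tested genes had. Both strands were searched. The cell cycle homology region, TTTGAA, which MuvB complexes contact, was present in 9.19% of all windows, in 16.3% of 698 lower genes, in 25.1% of 223 genes lower at least 2-fold and in 10.5% of 430 higher genes. The box CCAAT, the letters bound by NF-Y, was present in 37.7% of all windows, 43.3% of lower, 49.3% of at least 2-fold lower and 39.1% of higher genes. An E2F word (TTTGGCGC, TTTGCCGC, TTTCGCGC or TTTCCCGC) was present in 5.76%, 9.46%, 13.0% and 3.72% in the same order. These shares are descriptions of letters and no test was made of them. Not every named lower gene held such words. The windows of CNIH2, SCGB2A2 and SCGB1D2 held none, that of IQGAP3 held TTTGAA only after the start, and FAM111B and LGALS1 had no window. The 120 bases before the start are shown for 4 of the named lower genes that hold them. Cell cycle homology region, CCAAT and E2F letters are in capitals, read 5′ to 3′ on the strand of the gene.
MKI67, chr10:128126424-128126543, minus strand: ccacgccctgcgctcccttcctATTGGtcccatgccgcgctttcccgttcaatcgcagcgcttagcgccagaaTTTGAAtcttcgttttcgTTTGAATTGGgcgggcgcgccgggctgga
CENPF, chr1:214603075-214603194, plus strand: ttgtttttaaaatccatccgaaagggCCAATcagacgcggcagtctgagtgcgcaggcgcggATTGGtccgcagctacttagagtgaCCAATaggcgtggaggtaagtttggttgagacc
RRM2, chr2:10122619-10122738, plus strand: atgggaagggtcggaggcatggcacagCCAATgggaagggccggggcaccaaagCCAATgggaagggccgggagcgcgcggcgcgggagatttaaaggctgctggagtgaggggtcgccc
TYMS, chr18:657533-657652, plus strand: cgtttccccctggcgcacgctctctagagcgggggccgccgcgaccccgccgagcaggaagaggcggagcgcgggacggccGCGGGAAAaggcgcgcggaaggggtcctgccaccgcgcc
In MKI67 the letters TTTGAA occur at 47 to 42 and at 29 to 24 bases before the start, and the latter shares its last base with a reversed CCAAT box, so they form a single run of capitals. CENPF has 3 CCAAT boxes in this stretch, with that at 58 to 54 bases reversed. RRM2 has CCAAT boxes at 93 to 89 and 66 to 62 bases, and TYMS has a reversed E2F word at 39 to 32 bases.

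Immediate early genes and other short-lived transcripts moved the other way. Of 33 tested members of this list 15 were higher with abemaciclib and 5 were lower (DUSP4, BTG2, IER5, FOSL2 and IER3). This is 60.6% called, against 13.2% of all tested genes, with a median log2 difference of 0.32. FOS (chr14:75278826-75282230, GRCh38), the AP-1 subunit, stood at 2.74, 6.94 and 7.80 CPM with palbociclib and 32.7, 40.3 and 45.5 with abemaciclib, with no overlap (2.77 ± 0.30, adjusted p = 2.28e-10). The DMSO libraries spread from 3.73 to 25.0 CPM for FOS, with the lowest value in DMSO replicate 3, so the reference level is uncertain, while every abemaciclib value lay above every DMSO and palbociclib value. EGR1, a zinc finger factor induced by growth factor signalling, stood at 66.7, 87.3 and 68.7 CPM with palbociclib and 199, 285 and 289 with abemaciclib (1.80 ± 0.18, adjusted p = 2.47e-11), and its DMSO values of 141, 234 and 58.3 CPM ran from below the palbociclib values into the abemaciclib range. JUN, the partner of FOS, measured 45, 51.6 and 54.6 and 120.4, 127 and 189 CPM (1.52 ± 0.14, adjusted p = 1.26e-12), and IER2 40.3, 47.6 and 50.8 and 101, 99.2 and 137 CPM (1.28 ± 0.16, adjusted p = 2.27e-08). In both, DMSO replicate 3 was again the lowest DMSO library and lay above all palbociclib libraries. ZFP36, which encodes the mRNA decay factor tristetraprolin, stood at 3.85, 6.02 and 4.40 CPM with DMSO, 2.47, 3.97 and 8.09 with palbociclib and 23.9, 25.0 and 30.5 with abemaciclib (2.44 ± 0.29, adjusted p = 1.97e-09). Here palbociclib and DMSO overlapped and abemaciclib alone was higher. DUSP1, a MAP kinase phosphatase, differed by 1.83 ± 0.35 (adjusted p = 7.79e-05), and DESeq2 gave an adjusted p of 0.0617. The AP-1 gene FOSB (1.35 ± 0.35, adjusted p = 0.00528) was not called without abemaciclib replicate 3 (0.141). The MAP kinase phosphatase DUSP4 went against the list, at 247, 242 and 249 CPM with palbociclib and 131, 124 and 135 with abemaciclib (-0.92 ± 0.08, adjusted p = 2.78e-13), and MYC was not called (0.23, interval -0.18 to 0.64).

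The promoter of EGR1 is shown for the 2 CArG boxes it holds, CC and GG around 6 bases that are A or T, the letters bound by serum response factor. They lie at 105 to 96 and 83 to 74 bases before the start and are in capitals, as is a reversed TTTGAA word.
EGR1, chr5:138465359-138465478, plus strand: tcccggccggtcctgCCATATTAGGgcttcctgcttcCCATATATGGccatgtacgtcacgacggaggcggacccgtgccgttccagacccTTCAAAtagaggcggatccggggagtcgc
A CArG box was present in 1.01% of all windows, in 1.16% of the 430 higher genes and in 1.58% of the 698 lower genes, and among the 43 windows of genes higher at least 2-fold it was found in 1.

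SCGB2A2, SCGB1D2, MGP and SERPINA6, which encode secreted proteins, were higher with palbociclib, and no list of secreted proteins was tested. SCGB2A2 (chr11:62270158-62273160, GRCh38), which encodes mammaglobin A, stood at 357, 359 and 419 CPM with DMSO, 3504, 3191 and 3336 with palbociclib and 1011, 1114 and 1016 with abemaciclib. Both drugs raised it, palbociclib further, and the compounds differed by -1.68 ± 0.07 (adjusted p = 2.57e-27). Its partner secretoglobin SCGB1D2 (lipophilin B), on the same chromosome at chr11:62242239-62244812, measured 35.9, 33.7 and 32.9, 207, 191 and 171 and 42.4, 39.9 and 38.2 CPM in the same order of groups (-2.24 ± 0.11, adjusted p = 4.72e-24). It rose with palbociclib, while abemaciclib was not called against DMSO (adjusted p = 0.161). MGP, matrix Gla protein, an inhibitor of calcification, stood at 773, 773 and 768 CPM with DMSO, 8239.8, 8063 and 9189 with palbociclib and 3508, 3592 and 3748 with abemaciclib (-1.23 ± 0.06, adjusted p = 1.97e-22). Both drugs raised it and no groups overlapped. SERPINA6, corticosteroid-binding globulin, measured 0.642, 1.20 and 0.677, 13.2, 18.8 and 9.82 and 1.62, 1.02 and 2.699 CPM, so that every palbociclib value lay above every value of the other groups (-2.96 ± 0.43, adjusted p = 4.19e-07). MGP and SERPINA6 were chosen after their values were seen. LGALS1, galectin-1, had another pattern, with 174, 170.1 and 174 CPM with DMSO, 183, 169.6 and 148 with palbociclib and 37.9, 44 and 41.3 with abemaciclib (-2.02 ± 0.10, adjusted p = 8.5e-23). Palbociclib overlapped DMSO and was not called against it (adjusted p = 0.729), and abemaciclib lowered it.

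**Figure D4:**
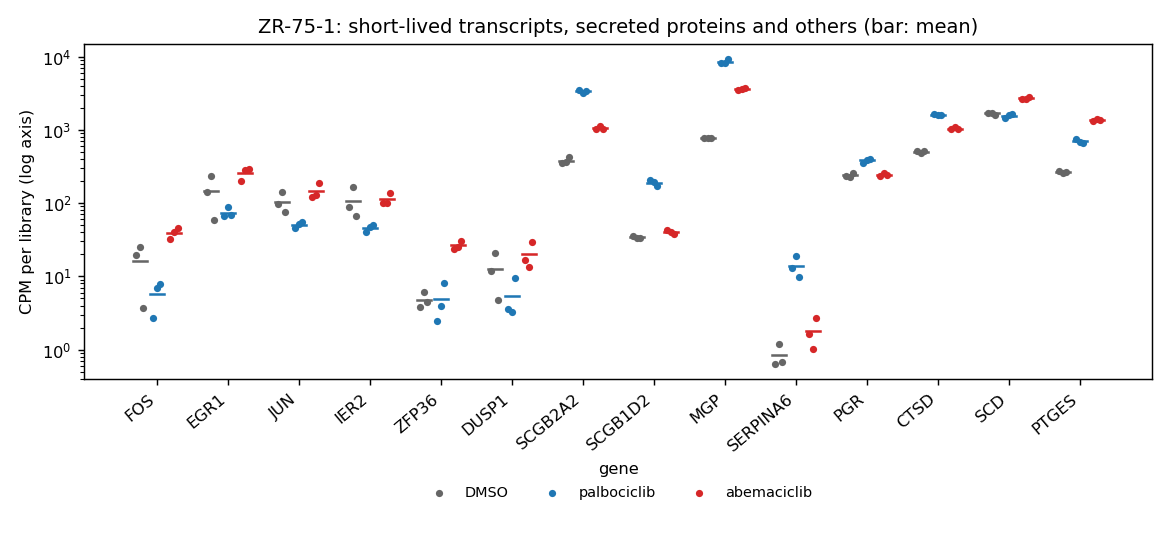
Points give the CPM (log axis) of each of the 9 libraries for 14 genes outside the cell cycle, with colours as before and a bar at the group mean. FOS, EGR1, JUN and IER2 have their lowest mean with palbociclib and spread widely with DMSO, SCGB2A2, SCGB1D2, MGP, SERPINA6, PGR and CTSD are highest with palbociclib, and SCD and PTGES are highest with abemaciclib.

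Targets of the oestrogen receptor did not differ in a common direction. Of 57 tested members 13 were higher and 12 lower with abemaciclib, with a median log2 difference of -0.01. That is 43.9% called, against 13.2% of all tested genes. FOS, with the largest positive value in this list, is also in the list of short-lived transcripts. Against DMSO the list median was 0.50 with abemaciclib and 0.63 with palbociclib. PGR, the progesterone receptor, stood at 238, 225 and 254 CPM with DMSO, 356, 388 and 399.7 with palbociclib and 236, 259 and 239 with abemaciclib. It rose with palbociclib, the abemaciclib values overlapped DMSO, and the compounds differed by -0.64 ± 0.07 (adjusted p = 1.38e-09). CTSD, cathepsin D, measured 508, 481 and 519, 1637, 1577 and 1592 and 1017, 1096 and 1011 CPM, a rise with both drugs that was smaller with abemaciclib (-0.62 ± 0.06, adjusted p = 3.36e-11). TFF1, trefoil factor 1, measured 1732, 1619.9 and 1713, 7244, 7216 and 7094 and 8034, 8767 and 8293 CPM (0.22 ± 0.06, adjusted p = 0.0123). It rose with both drugs, slightly further with abemaciclib, and the call between them was lost without abemaciclib replicate 2 (adjusted p = 0.0505). ESR1 itself, the oestrogen receptor, measured 305, 281 and 275 CPM with palbociclib and 359, 307 and 319.7 with abemaciclib (0.19, interval 0.04 to 0.35, adjusted p = 0.0869) and became called without abemaciclib replicate 2 (0.0479), without palbociclib replicate 1 (0.032) or with upper-quartile factors (0.0439). GREB1 was not called (-0.17, interval -0.36 to 0.01). Higher members included EGR3 (1.07 ± 0.13), a zinc finger factor of the EGR family, and STC2, a stanniocalcin (0.90 ± 0.17). Lower members included IGFBP4, which binds insulin-like growth factors (-0.40 ± 0.07), and FKBP4, a co-chaperone of steroid receptors (-0.34 ± 0.07).

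Luminal transcription factors and keratins were modestly higher with abemaciclib. Of 17 tested members 11 were higher and 1 lower (70.6% called, against 13.2% of all tested genes), with a median of 0.25. KRT8, KRT18 and KRT19 are also in the oestrogen list. GATA3 stood at 1667, 1635 and 1689 CPM with DMSO, 1417, 1392 and 1339 with palbociclib and 1824, 1887 and 1867 with abemaciclib (0.43 ± 0.06, adjusted p = 5.29e-07). Palbociclib had lowered it and abemaciclib had raised it slightly. FOXA1, the pioneer factor of the oestrogen receptor, measured 141, 169 and 152 CPM with palbociclib and 213, 213 and 229 with abemaciclib (0.50 ± 0.09, adjusted p = 1.26e-05). KRT8, keratin 8, measured 425, 400.0 and 458, 313, 307 and 322 and 421, 461 and 441 CPM, so that it fell with palbociclib and overlapped DMSO with abemaciclib (0.49 ± 0.07, adjusted p = 4.36e-07). ELF3, an epithelial ETS factor, was the 1 lower member (-0.65 ± 0.10, adjusted p = 1.47e-06).

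Calls among fatty acid and lysosome genes leaned toward abemaciclib, and cholesterol genes held calls in both directions. SCD, stearoyl-CoA desaturase, which makes monounsaturated fatty acids, stood at 1721, 1692 and 1596 CPM with DMSO, 1433, 1574 and 1632 with palbociclib and 2665, 2660.5 and 2802 with abemaciclib. It was higher with abemaciclib alone, by 0.81 ± 0.06 against palbociclib (adjusted p = 6.17e-15). SREBF1, the transcription factor of fatty acid synthesis, measured 85.6, 93.9 and 93.9 and 162, 154 and 168 CPM (0.83 ± 0.09, adjusted p = 8.84e-10), and FASN, fatty acid synthase, differed by 0.40 ± 0.07. FADS1, a desaturase of polyunsaturated fatty acids, went the other way (-0.95 ± 0.14, adjusted p = 5.42e-07). Of 15 tested fatty acid genes 4 were higher and 1 lower (33.3% called, against 13.2% of all tested genes). Of 23 cholesterol genes 4 were higher and 3 lower (30.4% called, DESeq2 called 4 in all). FDPS, an enzyme of the pathway, differed by -0.39 ± 0.08, and HMGCS1 (0.18, interval -0.04 to 0.39) was not called. Of 41 lysosome and autophagy genes 10 were higher and 2 lower (CTSD and PLIN2), or 29.3% called. NPC2, a lysosomal cholesterol carrier, measured 70.6, 70.7 and 89.1 CPM with DMSO, 126, 128 and 119 with palbociclib and 201, 213 and 182 with abemaciclib (0.68 ± 0.09, adjusted p = 5.62e-08). ATP6AP1, an accessory subunit of the vacuolar proton pump, measured 285, 257 and 265, 505, 478 and 477 and 644, 709 and 648 CPM (0.45 ± 0.07, adjusted p = 8.88e-07). Both rose stepwise from DMSO through palbociclib to abemaciclib without overlap. PTGES, prostaglandin E synthase, showed the same order with 273, 256 and 265, 753, 676 and 658 and 1325, 1418 and 1348 CPM (0.97 ± 0.07, adjusted p = 1.5e-17).

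Glycolysis genes were lower with abemaciclib in 8 of 20 tested members and higher in 1, HK1 (45% called, against 13.2% of all tested genes). ENO2, an enolase, stood at 49.4, 52.1 and 52.5 CPM with DMSO, 43.4, 45.6 and 46.5 with palbociclib and 18.8, 14.6 and 16.6 with abemaciclib (-1.44 ± 0.16, adjusted p = 2.78e-10). TPI1, triosephosphate isomerase, measured 488, 453 and 459.7 and 304, 325 and 324 CPM with palbociclib and abemaciclib (-0.56 ± 0.07, adjusted p = 2.27e-08). PGK1 differed by -0.38 ± 0.08 and the lactate exporter SLC16A3 by -2.96 ± 0.47. For SLC16A3 the abemaciclib libraries held 4, 4 and 2 counts, near the limit of detection. ENO2 and PGK1 were not called between palbociclib and DMSO (adjusted p = 0.324 and 0.644). GAPDH and PKM were not called. Among 44 nuclear genes of the respiratory chain 9 were lower and 1 higher (22.7% called). NDUFB10, a subunit of complex I, stood at 396, 348 and 352 CPM with palbociclib and 232, 253 and 249.9 with abemaciclib (-0.58 ± 0.07). Among 76 cytosolic ribosomal proteins 15 were lower and 5 higher (26.3% called), with a median of -0.07. RPS29 (-0.53 ± 0.07) and RPS21 (-0.53 ± 0.07) were the clearest. Among 15 mitochondrially encoded genes 3 were higher and 2 lower (33.3% called, DESeq2 called 2 in all). MT-ND6, a complex I subunit encoded on the opposite strand from the other mitochondrial protein genes, stood apart. It measured 133, 126 and 156 CPM with palbociclib and 67.0, 53.5 and 57.5 with abemaciclib (-1.22 ± 0.11, adjusted p = 1.33e-13). Whether the counting used strand was not stated, so reads of MT-ND6 cannot be told from reads of the opposite strand.

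Stress and damage lists differed in direction. The p53 and ATF4 lists held mostly lower calls, and the ER and heat shock chaperone lists, given below, as many higher as lower. Shares called are set against the 13.2% of all tested genes. Of 24 tested p53 targets 9 were lower and none higher (37.5% called, DESeq2 called 5). The lower members included CDKN1A, the apoptosis-enhancing nuclease AEN (-0.81 ± 0.14) and BBC3, which encodes PUMA (-0.76 ± 0.18). MDM2, ZMAT3 and TP53INP1 were not called. Of 27 genes of the ATF4 and amino acid response 7 were lower and 1, STC2, was higher (29.6% called). GDF15, a secreted stress cytokine, fell from 131, 125 and 102 CPM with DMSO to 38.1, 35.4 and 43.3 with palbociclib and 12.3, 11.2 and 17.0 with abemaciclib (-1.55 ± 0.17, adjusted p = 2.16e-10). PHGDH, the entry enzyme of serine synthesis (-1.05 ± 0.16), and SLC1A4, a neutral amino acid transporter (-0.81 ± 0.09), were lower. SLC7A11, the cystine transporter, had low values of 4.39, 3.31 and 4.04 CPM with palbociclib and 1.29, 3.05 and 0.771 with abemaciclib and was not called (-1.17, interval -2.07 to -0.26, adjusted p = 0.08), except without abemaciclib replicate 2 (0.0234). CHAC1, a glutathione-degrading enzyme, was likewise undecided (interval -1.21 to 1.30). No member of the tRNA synthetase list (20 tested), the MHC class I list (10) or the tight junction list (10) was called by edgeR or DESeq2, and at an unadjusted p under 0.05 there were 2, 1 and 3 members. Of 20 interferon-stimulated genes 4 were lower and 1 was higher (25% called). Of 37 ribosome biogenesis genes 1, FBL, was lower (-0.43 ± 0.08), or 2.7% called. AXIN2, a WNT target, was too low to test, with at most 4 counts in a library. Of the 8 tested WNT targets BMP4 was the 1 call (0.94 ± 0.16, adjusted p = 2.12e-05), a share of 12.5%, near that of all tested genes.

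The remaining lists are set against the 13.2% of tested genes called. Calls were 2 higher and 2 lower of 20 ER chaperones (20% called), 3 and 3 of 18 heat shock chaperones (33.3%), 2 and 2 of 13 BCL2 family genes (30.8%), 2 and 2 of 13 ERBB, FGFR and IGF genes (30.8%), none and 2 of 18 NRF2 genes (11.1%), and none and 1 of 9 MYC, MAX and MXD genes (11.1%). In the smallest lists they were 2 higher and 1 lower of 7 AHR and xenobiotic genes (42.9%), 1 and 1 of 6 senescence secretory genes (33.3%) and 1 and none of 6 retinoid genes (16.7%). Of the 3 tested genes listed with the Cip/Kip inhibitors, CDKN1A and the phosphatase CDKN3, which is no Cip/Kip inhibitor, were lower. DESeq2 called 1 of the BCL2 family genes and 0 of the retinoid genes. HSPB8, a small heat shock protein, was higher with abemaciclib at 2.20, 2.98 and 3.75 against 11.0, 16.2 and 6.94 CPM (1.94 ± 0.41, adjusted p = 0.00049). ERBB2, the receptor HER2, measured 85.9, 74.0 and 78.0 CPM with palbociclib and 126, 129.6 and 109.5 with abemaciclib (0.62 ± 0.10, adjusted p = 7.88e-06). OSGIN1, an oxidative stress-induced growth inhibitor and a member of the NRF2 list, rose with palbociclib to 36.2, 25.1 and 43.9 CPM and stood at 15.5, 14.9 and 15.0 with abemaciclib (-1.22 ± 0.20, adjusted p = 8.17e-06).

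**Figure D5:**
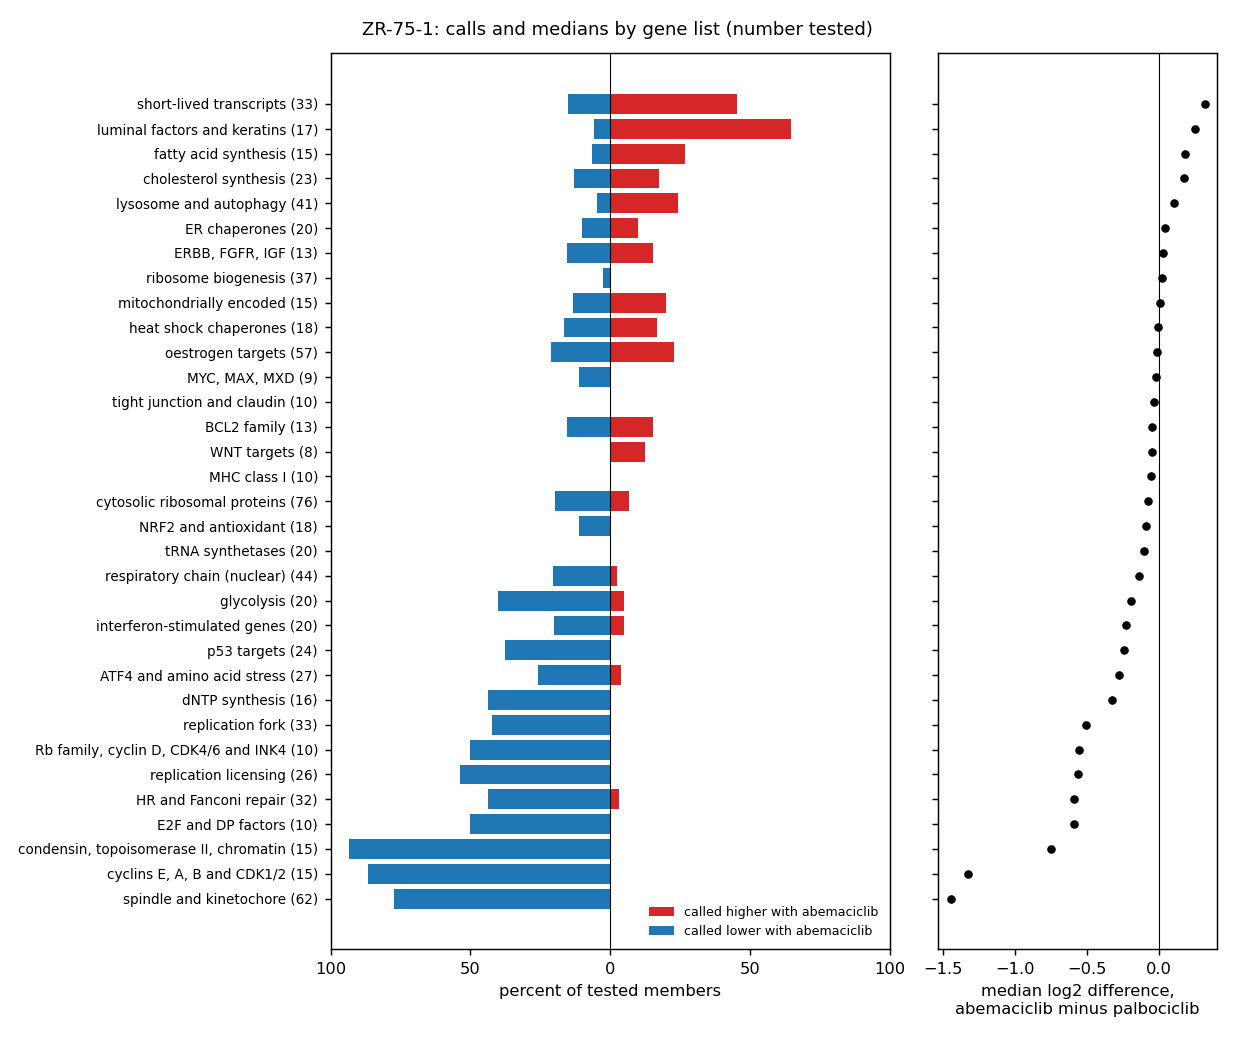
For the lists with at least 8 tested genes, bars give the percent of tested members called higher (red, right) and lower (blue, left) with abemaciclib, and the points at the right give the median log2 difference, abemaciclib minus palbociclib. The spindle list has the lowest median, -1.44, with 48 of 62 members lower, and the short-lived transcripts the highest, 0.32, with 15 of 33 higher.

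Several genes lay on opposite sides of DMSO under the drugs, each called in its own comparison with the same DMSO libraries. CEACAM6, a cell adhesion glycoprotein, stood at 17.3, 12.6 and 26.1 CPM with DMSO, 30.5, 35.04 and 23.7 with palbociclib and 3.24, 4.40 and 6.17 with abemaciclib. Its log2 difference from DMSO was -2.02 under abemaciclib (adjusted p = 7.45e-08) against 0.67 under palbociclib (adjusted p = 0.0123). KISS1R, the kisspeptin receptor, measured 27.6, 33.7 and 30.8, 70.8, 67.8 and 53.1 and 20.7, 24.7 and 13.9 CPM, with log2 differences from DMSO of -0.62 for abemaciclib and 1.05 for palbociclib. NQO1, a quinone reductase, showed -0.43 and 0.32 in the same order. ATN1, a transcriptional corepressor, showed the reverse, with 152, 150.2 and 205 CPM with DMSO, 151, 129 and 145 with palbociclib and 331, 382 and 379 with abemaciclib (1.36 ± 0.09 between the drugs, adjusted p = 2.3e-18). CEACAM6 and KISS1R were chosen after their values were seen.

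Further genes differed as follows. NEURL1B, a ubiquitin ligase of Notch signalling, stood at 156, 138 and 146 CPM with DMSO, 41.4, 42.3 and 46.2 with palbociclib and 3.24, 5.08 and 3.08 with abemaciclib (-3.49 ± 0.20, adjusted p = 1.12e-20). FAM111B, a protease, differed by -3.70 ± 0.27 and CNIH2, a cornichon protein, by -4.10 ± 0.36. The abemaciclib libraries held 8, 4 and 8 counts of FAM111B and 0, 5 and 5 of CNIH2, so these levels are near the limit of detection. ALDH3B2, an aldehyde dehydrogenase, measured 72.5, 65.3 and 82.0, 26.6, 26.1 and 23.4 and 82.8, 93.8 and 87.1 CPM, so that it fell with palbociclib and was not called against DMSO with abemaciclib (adjusted p = 0.0586). The compounds differed by 1.79 ± 0.13 (adjusted p = 7.03e-17). GJA1, the gap junction protein connexin 43, measured 92.8, 112 and 101, 109, 96.5 and 115 and 230.4, 218 and 226 CPM, a rise with abemaciclib alone (1.07 ± 0.09, adjusted p = 1.46e-14). HIBADH, an enzyme of valine breakdown, rose from 2.47, 8.93 and 4.62 CPM with palbociclib to 22.3, 29.4 and 22 with abemaciclib (2.24 ± 0.30, adjusted p = 4.42e-08). TIMP1, an inhibitor of matrix metalloproteinases and the 1 higher member of the senescence secretory list, measured 8.67, 9.93 and 7.45, 36.2, 41.0 and 33.5 and 68.0, 66.0 and 54.8 CPM and rose further with abemaciclib (0.78 ± 0.14, adjusted p = 3.77e-05).

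To ask whether these differences are particular to ZR-75-1, the same contrast was measured in CAMA-1, another oestrogen receptor-positive line treated alike, and the difference between the lines was tested as an interaction over all 18 libraries. Of 11987 genes tested, 336 (2.8%) differed between the lines, 124 with a more positive and 212 with a more negative value in ZR-75-1. Of the 1451 genes called in ZR-75-1, 276 (19.0%) were among them, so for most the difference between the lines was not established. The spindle list had a median of -1.44 in ZR-75-1 and -0.39 in CAMA-1, and 27 of its 62 members differed between the lines, all lower in ZR-75-1. For MKI67 the log2 difference between the compounds was -4.52 in ZR-75-1 and -0.86 in CAMA-1, and the lines differed by -3.66 (adjusted p = 2.79e-22). None of 26 licensing genes and none of 32 repair genes was called between the lines by edgeR or DESeq2, with 6 and 2 at an unadjusted p under 0.05, and MCM2 (-0.54 and -0.80, adjusted p = 0.562) and E2F1 (-0.84 and -0.69, adjusted p = 0.854) differed between the compounds in both. Of 33 short-lived transcripts 14 were more positive in ZR-75-1 and none more negative, with medians of 0.32 and -0.18. FOS was 2.77 in ZR-75-1 and -0.97 in CAMA-1 (adjusted p of the difference 9.41e-11). SCGB2A2 was lower with abemaciclib in both lines, at -1.67 and -1.17, and MGP at -1.23 and -0.37, and for both the value in ZR-75-1 was the more negative (adjusted p of the difference 0.0103 and 2.31e-11). PTGES was higher with abemaciclib in both, at 0.97 and 0.78, and did not differ between the lines beyond the error (interaction 0.19, adjusted p = 0.41). GDF15 was lower with abemaciclib in both by a like amount (-1.54 and -1.61, interaction 0.07, adjusted p = 0.955).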

How the data were processed

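Counts were deposited by the authors as whole reads per gene, made by trimming with BBDuk, aligning to hg38 with STAR 2.7.5b and counting over GENCODE annotation with featureCounts 2.0.1. Labels and methods disagree on the strand of the QuantSeq kit, and neither the strand setting of the counting nor molecular identifiers were stated, so intervals on counts cover counting error only. Rows without a symbol held 0.0704% of counts and were kept under their identifier. The 9 ZR-75-1 libraries were filtered with filterByExpr, scaled by TMM and fitted in edgeR 4.0.16 (R 4.3.3) with the quasi-likelihood test, and genes were called at a Benjamini-Hochberg adjusted p under 0.05 over the 11017 genes tested. These genes held 99.5% of the counts, and the biological coefficient of variation was 8.30%. CPM are relative to the TMM-scaled total. Log2 differences carry standard errors, and intervals are 95%. The difference between lines was an interaction over 18 libraries. On simulated data for the comparison between the drugs with 10801 genes, 64% of 50 genes changed 1.5-fold and 98% of 50 changed 2-fold were recovered. The changed genes were drawn only from genes above a minimum mean CPM, so recovery at low counts was not measured.

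Named genes were a fixed list, the 10 largest differences in each direction among calls averaging 10 or more counts without overlap, the 5 smallest p in each direction at a mean of at least 100 CPM, the 4 called members of each list with the smallest p, and the 3 smallest interaction p in each direction. Others were chosen after their values were seen. The values of some genes that the rule names are not reported here. The comparison, the members and the 41 gene lists, written by hand and in part overlapping, were chosen with earlier results of these data known. Genes with near-identical copies or overlapping neighbours are less certain. Alternatives were RLE and upper-quartile factors, other filters, the drug libraries alone, a replicate block, a 1.5-fold minimum, DESeq2 1.42.0 and leaving out each library. Replicate numbers did not pair the samples, since same-numbered libraries deviated together at r = -0.038 to 0.024.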

Additional observations from a re-analysis of the deposited data

Results flagged for a closer look

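The contrast between the compounds differed between ZR-75-1 and CAMA-1 for 336 genes by the interaction test of edgeR. The 3 smallest p in each direction belonged to SCD, HES1 and EGR1, more positive in ZR-75-1, and to TOP2A, MKI67 and LGALS1, more negative. For SCD, a fatty acid desaturase, abemaciclib minus palbociclib was 0.81 in ZR-75-1 and -0.46 in CAMA-1, a difference of 1.28 (adjusted p = 1.97e-15). HES1, a repressor downstream of Notch, was 0.59 and -0.59, a difference of 1.18 (adjusted p = 4.3e-12). EGR1 was 1.80 and -0.75, a difference of 2.55 (adjusted p = 2.31e-11), and its DMSO values spread from 59.4 to 238 CPM in ZR-75-1 in that fit. These 3 genes were called in each line with opposite signs. TOP2A was -2.85 and -0.46, a difference of -2.38 (adjusted p = 2.81e-28). MKI67 was -4.52 and -0.86, a difference of -3.66 (adjusted p = 2.79e-22). LGALS1 was -2.02 and -0.26, a difference of -1.77 (adjusted p = 2.21e-19). In the last 3 genes abemaciclib was lower than palbociclib in both lines and further so in ZR-75-1. For LGALS1 in CAMA-1 both drug means, 1396 CPM with palbociclib and 1169 with abemaciclib, lay above the DMSO mean of 765. The direction of each value was shared by all 3 abemaciclib libraries against the palbociclib mean of their line for all 6 genes. The genes were chosen by the smallest p over the same libraries, so this shared direction is a description and adds no evidence.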

How the results depend on the processing

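The number of genes called between the drugs stayed within 1.5 times the 1451 reported under RLE (1467) and upper-quartile factors (1449), no filter on low counts (1296), a minimum mean of 20 counts (1433), the 6 drug libraries alone (1459) and without mitochondrial genes (1460). Leaving out each library in turn gave 1062 to 1500 calls, 413 to 638 higher, 649 to 889 lower and 312 to 359 of at least 2-fold. A test against a 1.5-fold minimum called 209 genes, 29 higher and 180 lower, 195 of them at least 2-fold. DESeq2 called 909 genes, 353 higher and 556 lower, of which 900 were among the 1451, and the cause was not tested. Replicate numbers did not pair the samples, and with the replicate number as a block 1473 genes were called. The share of lower genes among calls was 60.3%, and 53% with upper-quartile factors. The number of genes differing between lines was 259 to 326 when a library was left out, 332 with RLE factors, 323 with the replicate block and 396 with DESeq2. Of 160 called named genes, 84 lost the call in at least 1 of 18 settings and 76 kept it in all. Among those not called against the 1.5-fold minimum were GATA3, FOXA1, KRT8, PGR, CTSD, TFF1, FASN, SREBF1, NPC2, TPI1 and RPS29. In the 17 settings other than the 1.5-fold minimum, 23 genes lost the call at least once, 12 of them only when a library was left out. CDK6, not called, changed sign without abemaciclib replicate 1 (-0.31) or 3 (-0.18) and without palbociclib replicate 2 (-0.03), with a range of -0.31 to 0.77 when a library was left out, and CHAC1, not called, without abemaciclib replicate 2 (-1.20) or palbociclib replicate 3 (-0.26), with a range of -1.20 to 0.57. Depth limits genes near 3 counts a library, where ratios are known only within their counting intervals.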
